A study of Homo sapiens with 18 samples.

Results

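The 6 libraries described here are immunoprecipitated (IP) small RNA of vector cells, 3 treated with the demethylase AlkB and 3 left untreated, out of 18 libraries in the series. They were chosen by their labels as AlkB+ and AlkB- libraries of vector replicates 1 to 3, and every listed tRNA site was used. All come from WPMY-1, an immortalised human prostate stromal myofibroblast line, with the genotype TRMT61A wildtype and an empty vector. Small RNA was pulled down with an antibody against N1-methyladenosine (m1A), and the eluted RNA was divided into a part that received AlkB and a part that did not. The same number was taken to mark both parts of one pulldown, and libraries were compared in pairs. Whether the replicates came from separate cultures is not given in the labels, so the p-values reflect library-to-library scatter that may be technical. Vector input (3 libraries) and the corresponding AlkB-treated and untreated IP of TRMT61A-knockdown cells (6 libraries, an shRNA line) served for comparison. Both AlkB arms carry the vector, so nothing in this comparison bears on the knockdown itself.

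m1A carries a methyl group on the face of the base that pairs, and reverse transcriptase tends to stop at it or to insert a wrong base. In cytosolic tRNAs the enzyme TRMT6/TRMT61A places it at position 58 of the T-loop, the loop near the 3′ end that helps fold the tRNA into its L shape. AlkB, a bacterial repair enzyme, removes such methyl groups, and treated and untreated RNA are sequenced side by side for that reason. The readouts here are the share of reads with a mismatch at an adenosine, and read-through, the number of reads that cover position 58 as a percentage of those that cover the 3′ end of the same tRNA.

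The table lists 719 distinct adenosines in 180 tRNA genes, of which 91 are at position 58, the site 15 nucleotides before the 3′ end of the gene. The T-loops of the tRNAs on which the results turn follow, as the table gives the genes (hg38, 5′ to 3′, introns included), with tRNA positions 54 to 60 in capitals. The fifth capital letter is the adenosine at position 58. Tyr-GTA-2-1 (chr2:27050782-27050870, plus strand) and Tyr-GTA-7-1 (chr14:20659958-20660051, minus strand) rose in read-through with AlkB. Tyr-GTA-8-1 (chr6:26575570-26575659, plus strand) did not, and Thr-CGT-4-1 (chr17:31550074-31550145, plus strand), Gln-CTG-1-4 (chr15:65869062-65869133, minus strand), iMet-CAT-1-1 (chr1:153671250-153671321, plus strand) and Leu-CAG-1-1 (chr1:161441533-161441615, plus strand) show the other patterns described.
Tyr-GTA-2-1: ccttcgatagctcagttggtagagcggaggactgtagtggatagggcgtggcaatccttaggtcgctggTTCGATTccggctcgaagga
Tyr-GTA-7-1: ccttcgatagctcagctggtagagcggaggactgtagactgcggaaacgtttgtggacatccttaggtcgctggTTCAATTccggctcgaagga
Tyr-GTA-8-1: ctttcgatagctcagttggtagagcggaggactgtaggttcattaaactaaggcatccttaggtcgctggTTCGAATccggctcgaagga
Thr-CGT-4-1: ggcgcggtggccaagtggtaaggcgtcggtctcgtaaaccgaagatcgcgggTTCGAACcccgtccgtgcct
Gln-CTG-1-4: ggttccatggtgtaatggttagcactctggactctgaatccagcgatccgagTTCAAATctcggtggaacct
iMet-CAT-1-1: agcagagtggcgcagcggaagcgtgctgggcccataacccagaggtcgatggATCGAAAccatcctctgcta
Leu-CAG-1-1: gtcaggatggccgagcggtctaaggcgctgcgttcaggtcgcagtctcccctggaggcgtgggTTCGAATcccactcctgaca
Over the last 22 letters, tRNA positions 52 to 73 counted from the 5′ end, Tyr-GTA-7-1 differs from Tyr-GTA-2-1 by G57A and Tyr-GTA-8-1 by T59A. Tyr-GTA-5-4 (chr14:20663192-20663285, minus strand) and Tyr-GTA-5-5 (chr14:20683273-20683361, plus strand) do not differ from Tyr-GTA-2-1 over these letters.

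Reads summed over all sites came to 186534, 331823 and 373024 in AlkB-treated libraries 1 to 3, against 733176, 831147 and 707773 in untreated libraries 1 to 3. The treated libraries were thus shallower in every pair, but 469 to 529 of the sites had at least 20 reads in them, against 353 to 476 in untreated libraries. Site counts end near 8000 reads. No site reached 7900 in the AlkB-treated libraries, while 25 to 36 sites of 8 tRNAs did in untreated libraries. Replicates of both groups differed by more than counting noise, with chi-square values, per degree of freedom, of 61.6 to 78.4 among AlkB-treated and 425 to 568 among untreated libraries.

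Read-through of position 58 was called higher with AlkB in 4 of the 6 tyrosine tRNAs tested, which carry the GTA anticodon and contain introns in their genes. By the sign of the log2 change, 5 of the 6 were higher and 1 was lower. Read-through rose in 4 of the 45 tRNAs whose 3′ end had 20 reads or more in every library, and fell in none, by limma on log2 read-through with the pair as a block (adjusted p under 0.05, 8.89% of tRNAs called). All 4 were Tyr-GTA genes, in 2 families by their last 22 letters, and the other two tyrosine genes were not called. The other 39 tRNAs, which belong to other amino acids, had a median log2 change of 0.25 and the 45 together one of 0.45, and the lowest adjusted p outside tyrosine in the limma fit was 0.66.

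In Tyr-GTA-2-1, where position 58 is site A74 of the intron-containing gene, 38.4%, 71.6% and 64.6% of 3′-end reads reached the site in AlkB-treated libraries 1 to 3, against 2.49%, 7.47% and 3.6% in untreated libraries 1 to 3. The lowest treated library was far above the highest untreated one. The site was covered by 552, 1338 and 1161 reads with AlkB and by 20, 21 and 28 reads without it, from 1436, 1868 and 1797 and from 804, 281 and 777 reads at the 3′ end. The log2 change was 3.76 (SE 0.34, limma adjusted p = 0.00759, higher in 3 of 3 pairs), a ratio of 13.6. Vector input had 1.84% ± 0.392 (SD, n = 3), below both IP groups and nearer the untreated one.

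Tyr-GTA-5-4 had 38.1%, 74.2% and 65.2% in AlkB-treated libraries, against 3.39%, 7.33% and 3.1% in untreated libraries. Its log2 change was 3.71 (SE 0.36, limma adjusted p = 0.00759). Tyr-GTA-5-5 had 38.2%, 72.7% and 66.5% in AlkB-treated libraries, against 2.17%, 8.66% and 4.84% in untreated libraries. These genes have the same last 22 letters as Tyr-GTA-2-1 and nearly the same counts, and how reads were assigned among them is not given in the sources used here, so they are not counted as separate observations. With their reads summed, the family had 38.3%, 72.9% and 65.4% with AlkB and 2.68%, 7.82% and 3.87% without it, a log2 change of 3.70 (SE 0.29, limma adjusted p = 0.0131 over 22 such families).

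Tyr-GTA-7-1, whose T-loop differs by 1 letter, gave a similar picture at a lower level. Its read-through was 16.9%, 63.4% and 43.1% in AlkB-treated libraries, against 1.91%, 4.38% and 1.56% in untreated libraries. Again every treated library lay above every untreated one, and the log2 change was 3.88 (SE 0.43, limma adjusted p = 0.00968). It was also called among the families, with a limma adjusted p of 0.0192. The letter that differs, at position 57, lies 5′ of position 58, so reads that end before position 58 do not tell the 2 families apart. In untreated libraries Tyr-GTA-7-1 had 787, 274 and 770 reads at the 3′ end, against 804, 281 and 777 for Tyr-GTA-2-1. The 2 family calls are therefore not counted as separate observations.

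The tyrosine change kept its size without any 1 pair, but not its call. Without pair 1 the log2 changes of the 4 genes lay between 3.40 and 4.27, and without pair 2 between 3.92 and 4.03. The count of called tRNAs was 0 without pair 1, 0 without pair 2 and 6 without pair 3. The lowest limma adjusted p was 0.165 without pair 1 and 0.101 without pair 2, with 1 residual degree of freedom each. In a fit without the block, in which single libraries were left out, 0 tRNAs were called without AlkB-treated library 3, 2 without AlkB-treated library 2 and 3 without untreated library 1.

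**Figure D1:**
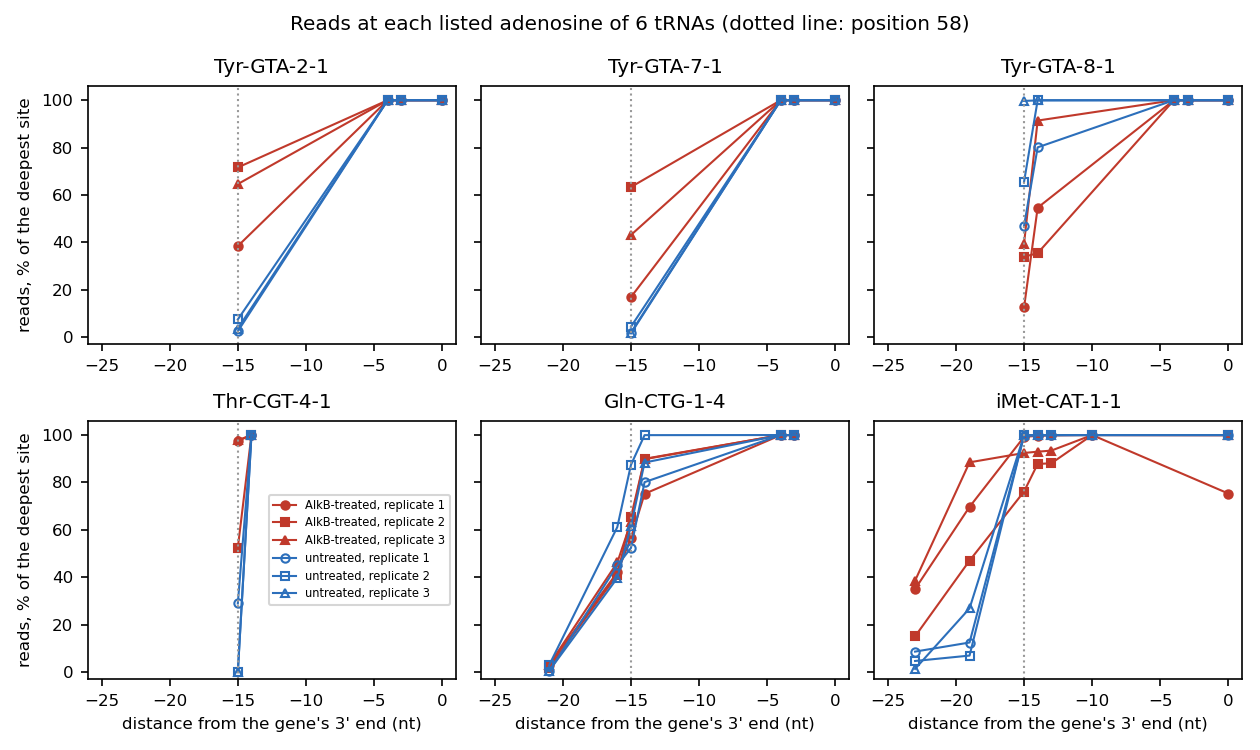
Reads at each listed adenosine within 25 nucleotides of the 3′ end (x axis, distance from that end in nucleotides) as a percentage of the deepest site shown (y axis), with 1 line per library, AlkB-treated filled and untreated open; the dotted line is position 58. In Tyr-GTA-2-1 and Tyr-GTA-7-1 all 3 treated lines stay above the untreated ones at position 58, in Tyr-GTA-8-1 they lie below, and in iMet-CAT-1-1 the lines part past position 58.

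Not all tyrosine genes behaved alike. Tyr-GTA-8-1, with T59A in the T-loop, had 12.5%, 33.9% and 39.5% in AlkB-treated libraries, against 47%, 65.5% and 99.7% in untreated libraries. Every treated library lay below every untreated one, with a log2 change of -1.40 (SE 0.34) that was not called (limma adjusted p = 0.13). Untreated library 2 had only 29 reads at the 3′ end of this gene, and untreated library 3 had 2471. Input had 1.55% ± 0.162 (SD, n = 3), below both IP groups.

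Tyr-GTA-6-1, which shares T59A and also has A69G, had no stable level. It gave 20.4%, 0.748% and 112% in AlkB-treated libraries, against 0.722%, 96.4% and 0.128% in untreated libraries. With the reads of all tyrosine genes summed, read-through was 29.4%, 64.3% and 59.7% with AlkB and 11.9%, 27.3% and 36% without it. The log2 change of 1.09 was not called (limma adjusted p = 0.173 over 18 anticodons, 0 of which were called). The call therefore rests on treating Tyr-GTA-2-1, Tyr-GTA-5-4, Tyr-GTA-5-5 and Tyr-GTA-7-1 apart from Tyr-GTA-8-1 and Tyr-GTA-6-1.

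**Figure D2:**
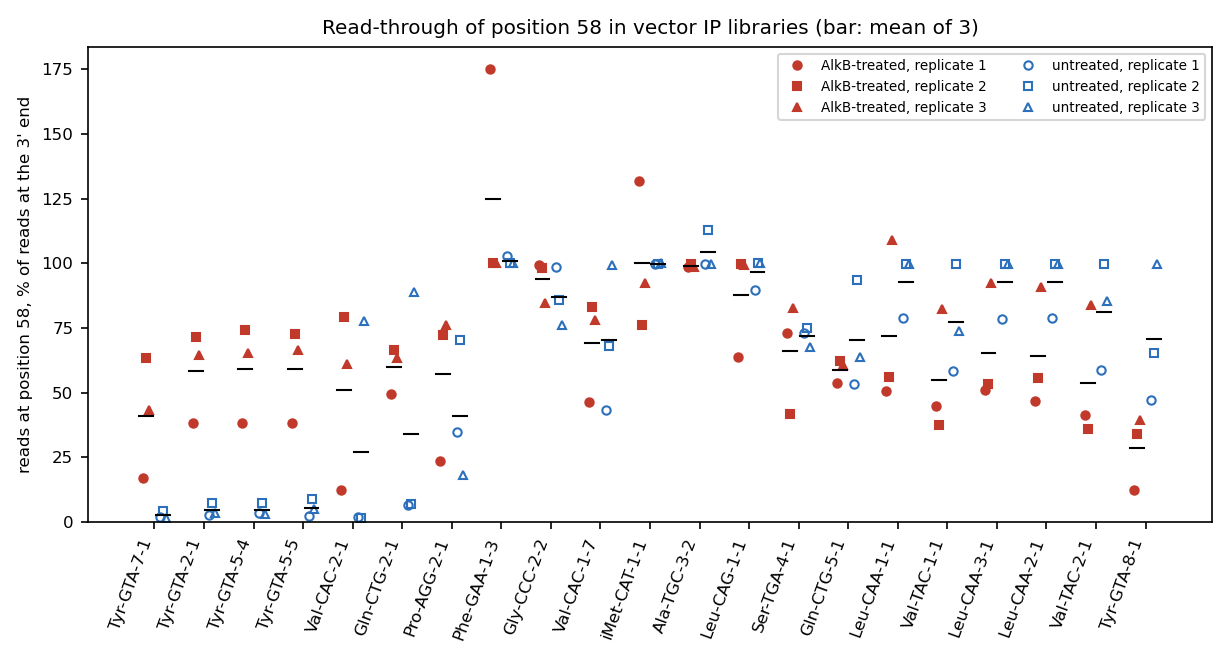
Read-through of position 58 (y axis, reads at the site as a percentage of reads at the 3′ end) in the named tRNAs, ordered by their log2 change, with AlkB-treated libraries filled on the left and untreated libraries open on the right of each name; bars are means of 3 libraries. The 4 called tyrosine tRNAs at the left are the only ones shown whose treated libraries all lie above their untreated ones.

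Glutamine tRNAs were among the best covered, and none of them was called for read-through. Gln-CTG-1-4 had 56.6%, 65.3% and 63.2% in AlkB-treated libraries, against 52.3%, 87.4% and 61.5% in untreated libraries (log2 change -0.09, SE 0.30). Its 3′-end count stood at the ceiling in untreated libraries 1 and 2, with 8000 and 8002 reads, so those 2 percentages may overstate read-through. Gln-CTG-2-1 showed how far untreated libraries could part, at 49.4%, 66.6% and 63.2% in AlkB-treated libraries, against 6.54%, 6.93% and 89% in untreated libraries. Its log2 change of 1.89 had an SE of 0.89 and was not called (limma adjusted p = 0.66). Of the 7 glutamine tRNAs, 5 were higher and 2 lower with AlkB.

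Leucine tRNAs had a negative log2 change in 6 of 6 genes, with a median of -0.34, and none was called (lowest limma adjusted p = 0.738). Of these genes, 5 share their last 22 letters, so they form 2 families. The family of 5 had 53.6%, 63.3% and 104% in AlkB-treated libraries, against 78.4%, 99.9% and 99.9% in untreated libraries (log2 change -0.38, SE 0.27, limma adjusted p = 0.689), and the groups overlapped. Leu-CAG-1-1 had 63.8%, 99.8% and 99.3% in AlkB-treated libraries, against 89.8%, 100% and 100% in untreated libraries. The groups overlapped only in that treated libraries 2 and 3 exceeded untreated library 1. Input had 14.5% ± 1.9 (SD, n = 3), below both. In untreated library 2 the site and the 3′ end were at the ceiling, with 8000 and 8001 reads.

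Proline tRNAs were higher with AlkB on average in 7 of 7 genes, with a median log2 change of 0.53. These 7 genes share their last 22 letters and form 1 family, so this is 1 observation. Pro-AGG-2-1 had 23.7%, 72.1% and 76% in AlkB-treated libraries, against 34.7%, 70.3% and 18% in untreated libraries. The groups overlapped, and it was higher in 2 of 3 pairs (limma adjusted p = 0.763).

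Of 7 serine tRNAs, 6 were higher with AlkB, and these 6 form 1 family by their last letters. Their summed read-through was 92.3%, 97.6% and 93.1% in AlkB-treated libraries, against 24%, 99.6% and 99.4% in untreated libraries. Only untreated library 1 was low. Ser-TGA-4-1, the remaining gene, had 73.2%, 41.7% and 82.9% in AlkB-treated libraries, against 73.2%, 74.8% and 67.6% in untreated libraries.

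The valine tRNAs Val-AAC-1-1, Val-AAC-4-1 and Val-CAC-1-7 form a family whose read-through was 47%, 83.8% and 76.6% with AlkB and 42.9%, 67.8% and 99.5% without it. Its mean changed little (log2 0.02, SE 0.26), while input stood at 0.949% ± 0.104 (SD, n = 3). Val-CAC-2-1 had a log2 change of 2.63 with an SE of 1.25, from 12.5%, 79.4% and 60.9% with AlkB and 2.02%, 1.61% and 77.8% without it, and was not called (limma adjusted p = 0.66). Untreated library 3 was the exception there, on 27 reads at the 3′ end.

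Most reads passed position 58 of the initiator tRNA, an alanine tRNA and the phenylalanine tRNA in both groups. iMet-CAT-1-1, which starts translation and has an unusual T-loop with adenosines at its edges, had 132%, 76.1% and 92.5% in AlkB-treated libraries, against 99.7%, 99.9% and 100% in untreated libraries. Values above 100% arise where more reads cover the site than the 3′ end. Ala-TGC-3-2 had 98.7%, 99.9% and 98.4% with AlkB and 99.7%, 113% and 99.9% without it. Phe-GAA-1-3 had 175%, 100% and 100% with AlkB and 103%, 100% and 100% without it. Taken over the deepest site near the 3′ end, iMet-CAT-1-1 had 99.2%, 76.1% and 92.4% in AlkB-treated libraries, against 99.7%, 99.9% and 100% in untreated libraries (log2 change -0.17, limma adjusted p = 0.727). On that measure Ala-TGC-3-2 had 98.3%, 93.9% and 98.4% in AlkB-treated libraries, against 99.7%, 100% and 99.9% in untreated libraries (log2 change -0.04, limma adjusted p = 0.977). For both, every treated library lay below every untreated one, as in 6% of the 50 tRNAs on that measure. Ala-CGC-1-1, which shares its last 22 letters with Ala-TGC-3-2, overlapped. It had 101%, 98.6% and 98.9% in AlkB-treated libraries, against 99.9%, 100% and 99.9% in untreated libraries (log2 change -0.01).

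In 43 of the 45 tRNAs the mean read-through was above that of vector input in the AlkB-treated libraries, and in 43 of the 45 it was above input in the untreated libraries too. Besides the 4 called tRNAs, Tyr-GTA-8-1 was the only one whose groups did not overlap, 2.22% of tRNAs lower with AlkB and 8.89% higher.

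**Figure D3:**
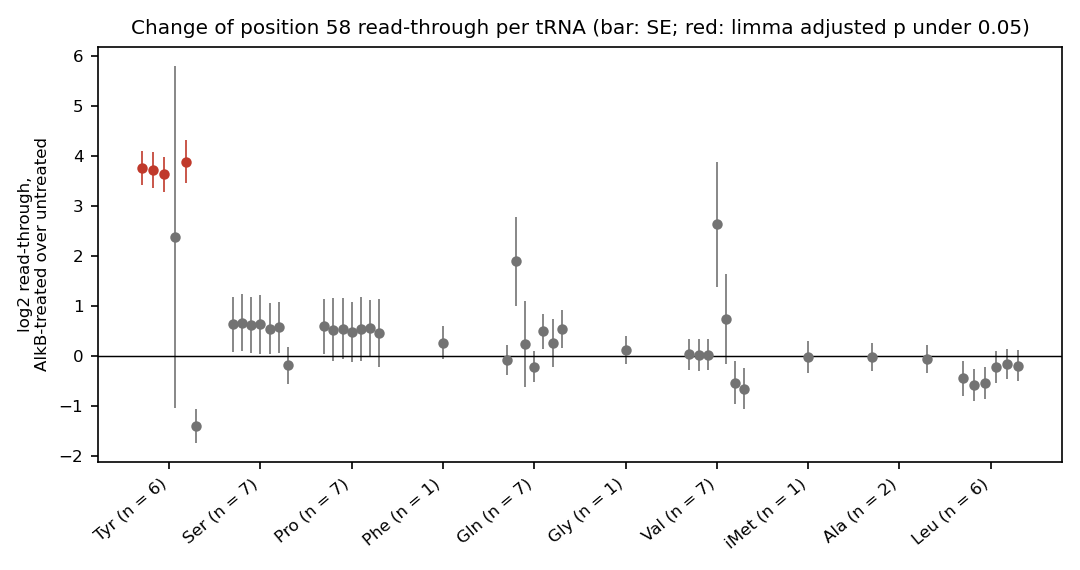
Log2 change of read-through of position 58, AlkB-treated over untreated (y axis), for the 45 tested tRNAs grouped by amino acid (x axis, number of tRNAs in parentheses); bars are the SE of the limma fit and red marks an adjusted p under 0.05. The 4 red points are tyrosine tRNAs between 3.63 and 3.88, and the tyrosine point at -1.40 is Tyr-GTA-8-1.

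tRNAs without a listed 3′-end site were reached by taking the deepest site up to 14 nucleotides from the end instead, a measure added after the values were seen. It covered 50 tRNAs and called the same number, 4 (8%). Thr-CGT-4-1 had 97.5%, 52.5% and 97.8% in AlkB-treated libraries, against 28.9%, 0.0754% and 0% in untreated libraries. Thr-CGT-2-1 (chr16:14285893-14285964, plus strand) had 99%, 62.2% and 96.2% in AlkB-treated libraries, against 26.7%, 0% and 0.077% in untreated libraries. Both Thr-CGT tRNAs, which share their last 22 letters, had groups without overlap, as had 12% of the 50 tRNAs in that direction and 6% in the other, and the limma adjusted p was 0.343 and 0.322. The Thr-TGT tRNAs on the same measure overlapped: Thr-TGT-4-1 had 89.1%, 87.5% and 65.4% with AlkB and 44.5%, 99% and 99.8% without it, and Thr-TGT-4-1, Thr-TGT-5-1 and Thr-TGT-6-1 had log2 changes of 0.07, 0.03 and 0.05.

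The number behind the 0 in Thr-CGT-4-1 was 0 of 4881 reads that reached the next adenosine, position 59, and untreated library 2 had 2 of 2651. The treated libraries had 117 of 120, 180 of 343 and 264 of 270 reads. Nearly all reads of untreated libraries 2 and 3 thus ended before position 58, and those of untreated library 1 did not, with 841 of 2909 reads.

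Along the whole tRNA, 254 steps from one listed site to the next were compared, a comparison added after the values were seen. Of these, 49 lead into position 58, and the others lie on either side of it. The initiator tRNA, named for its role, was 1 of the tRNAs with a step past position 58. Of the reads at its position 58, 70.2%, 61.7% and 95.7% reached A53 in AlkB-treated libraries, against 12.5%, 6.93% and 26.8% in untreated libraries. The groups did not overlap, and the log2 change of 2.49 (SE 0.35) was not called (limma adjusted p = 0.337). A step of Gly-GCC-3-1 went the other way. Of its reads at A14, 92.8%, 89.6% and 88.8% reached A3 in AlkB-treated libraries, against 99.9%, 100% and 99.9% in untreated libraries (limma adjusted p = 0.316). In the untreated libraries this gene stood at the ceiling, with 8007, 8002 and 8005 reads at A20 and nearly the same counts at A14 and A3. With both counts at the ceiling the untreated percentages are held near 100%, so this step is not read as a fall with AlkB. No step was called (0% of 254), although 19 had an unadjusted limma p under 0.05, 12 of them higher and 7 lower with AlkB. Of these 19, 2 were tyrosine steps with no read at the 5′ site in any of the 6 libraries, whose fitted values come from the added reads alone, which leaves 17. Among those 17, every step lower with AlkB was A14 to A3 of a Gly-GCC or Gly-CCC gene, with untreated counts at the ceiling. In 12.6% of the steps the groups did not overlap.

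Summed over the 66 tRNAs with both sites, read-through was lower with AlkB in every pair. It was 47%, 71.6% and 71.5% in AlkB-treated libraries 1 to 3, against 54.6%, 84% and 81.6% in untreated libraries. The means were 63.4% ± 14.2 with AlkB and 73.4% ± 16.3 without it (SD, n = 3 each). The difference of -10 percentage points gave an exact permutation p of 0.5 without regard to pairs (two-sided; 0.1 is the smallest p that 3 against 3 libraries allow). Within pairs it was -7.58, -12.5 and -10 percentage points, with an SD of 2.44 that was small beside the difference. The exact sign-flip test over these pairs gave p = 0.25, the smallest that 3 pairs allow. The ceiling, which only untreated libraries reached, may overstate their read-through. Over the 60 tRNAs without a site at the ceiling the difference was -7.37 percentage points, and without tyrosine tRNAs it was -8.49. Over the 45 tRNAs with enough reads the difference was -10.9 percentage points as sequenced. With each of these weighted as in the untreated libraries it was -1.86 percentage points, and treated libraries were higher in 2 of 3 pairs.

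The mix of tRNAs differed between the groups. Tyrosine tRNAs held 27.1%, 19.6% and 17.3% of the 3′-end reads of these 66 tRNAs in AlkB-treated libraries, against 4.11%, 1.2% and 7.42% in untreated libraries. Leucine tRNAs held 5.19%, 8.82% and 11.5% with AlkB and 27.9%, 22% and 26.8% without it. The groups did not overlap for either. They also did not overlap for valine (means of 7.1% ± 1.52 with AlkB and 17.4% ± 6.69 without), alanine (2.59% ± 1.9 with AlkB and 8.76% ± 2.78 without) and glycine (4.49% ± 1.51 with AlkB and 0.928% ± 1.05 without; SD, n = 3 each). Each of these 5 had an exact permutation p of 0.1, the smallest possible, and an adjusted p of 0.26 over 13 amino acids. In untreated library 2 the 3′-end counts of Gln-CTG-1-4, Gln-CTG-5-1 and Leu-CAG-1-1 stood at the ceiling near 8000 reads, which no treated library reached. The untreated shares are therefore approximate. Shares show unequal change only: fewer molecules and a lower yield per molecule cannot be told apart.

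**Figure D4:**
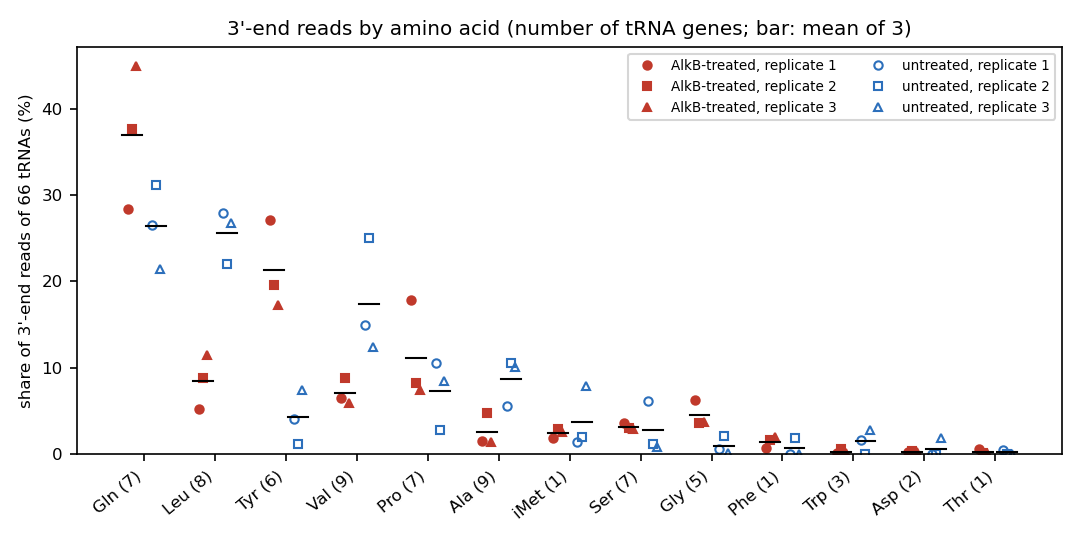
Share of the 3′-end reads of the 66 tRNAs with both sites (y axis, percent) held by the tRNAs of each amino acid (x axis, number of genes in parentheses), with AlkB-treated libraries filled on the left and untreated libraries open on the right; bars are means of 3 libraries. Tyrosine and glycine lie higher with AlkB and leucine, valine and alanine lower, without overlap.

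Gene by gene, no tRNA passed the threshold in the edgeR quasi-likelihood test on 3′-end reads (0 of 73, 0%; 15 with an unadjusted p under 0.05), although the groups did not overlap in 32.9% of them. Replicates scattered widely, with a common biological coefficient of variation of 1.04. Other settings of the same comparison called up to 26 tRNAs, so this count is not firm. The lowest p belonged to Ser-TGA-4-1, with 671, 1054 and 1044 reads in AlkB-treated libraries, against 149, 127 and 105 in the deeper untreated libraries (log2 change 3.93, edgeR adjusted p = 0.124). Leu-CAG-1-1 had 363.5, 881 and 1440 reads with AlkB and 7154, 8001 and 6666 without it (log2 change -2.13, edgeR adjusted p = 0.171). Tyr-GTA-5-4 had a log2 change of 2.67 (edgeR adjusted p = 0.225), and all 7 tyrosine genes tested were higher with AlkB, with a median of 2.02, while all 9 leucine genes were lower, with a median of -2.21, against 0.02 over the 73 tRNAs.

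Mismatch rates at position 58 did not pass the test with AlkB in any tRNA. Of the 45 position 58 sites with enough reads, 18 were higher and 27 lower by their log2 odds ratio, whose median was -0.23 against 0.09 over all 285 sites. No position 58 site was called by edgeR and 1 had an unadjusted p under 0.05. The median rate over these sites was 0.204%, 0.556% and 0.629% in AlkB-treated libraries 1 to 3, against 0.617%, 0.553% and 0.599% in untreated libraries. The means of these medians were 0.463% ± 0.227 with AlkB and 0.59% ± 0.0329 without it (SD, n = 3 each), with a difference of -0.127 percentage points (exact permutation p = 0.7). Treated library 1 was low and the others were not, and without replicate pair 1 the difference was 0.0164. With reads pooled over the sites the rates were 0.609% ± 0.0984 with AlkB, 0.635% ± 0.0201 without it and 0.552% ± 0.116 in vector input (SD, n = 3 each).

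The tyrosine tRNAs show what limits this measure. Of the reads that passed position 58 of Tyr-GTA-5-4, 3 of 555, 12 of 1404 and 10 of 1167 had a mismatch in AlkB-treated libraries, against 0 of 27, 0 of 20 and 0 of 23 in untreated libraries. A count of 0 in those 70 untreated reads allows a rate of up to 4.29%, so a difference from the 0.80% of the treated reads was not detectable at this depth. Such limits cover counting error only. In Gln-CTG-1-4, with far more reads in both groups, the rate at position 58 was 0.423%, 0.615% and 0.499% with AlkB and 0.597%, 0.458% and 0.678% without it, and the groups overlapped. Arg-ACG-2-1 A58 had the lowest p at position 58, with 0.161%, 0.284% and 0.57% with AlkB and 1.16%, 0.525% and 1.04% without it (log2 odds ratio -1.12, edgeR adjusted p = 0.929). Arg-ACG-1-3 A58, of the same anticodon, lay the other way, with 1.56%, 0.637% and 0.727% with AlkB and 0.506%, 0.342% and 0.514% without it (log2 odds ratio 0.86, edgeR adjusted p = 0.929).

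**Figure D5:**
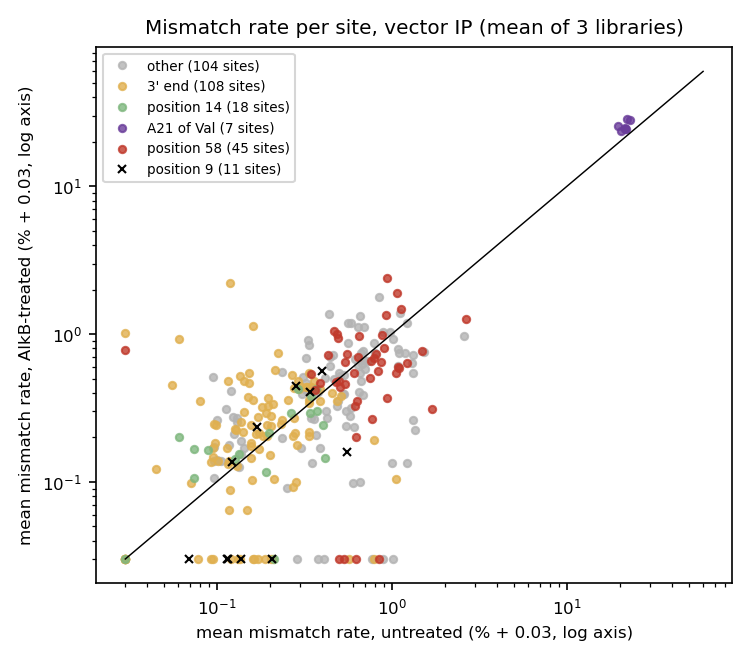
Mean mismatch rate of each site with at least 20 reads in all 6 libraries, AlkB-treated (y axis) against untreated (x axis), in percent plus 0.03 on log axes, coloured by the kind of site; the line marks equal rates. Position 58 sites lie on both sides of the line near 0.6%, and the 7 valine A21 sites lie above 10% in both groups.

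Over all sites, 1 of 285 passed the edgeR quasi-likelihood test on mismatched and matched reads (0.351%), and in 8.07% of sites the libraries of the groups did not overlap (3.51% higher and 4.56% lower with AlkB). It was A20 of the glycine tRNA Gly-GCC-3-1 (chr16:70778211-70778281, minus strand), which lies in the D-loop. Its rate was 0.201%, 0.431% and 0.213% in AlkB-treated libraries, against 0.0874%, 0.113% and 0.05% in untreated libraries. Each treated library exceeded each untreated one, with a log2 odds ratio of 1.77 (edgeR adjusted p = 0.042). The call rests on 47 mismatched of 16062 treated reads and 20 of 24014 untreated reads, all 3 untreated libraries stood at the ceiling, and it was lost without each of the 3 replicate pairs (edgeR adjusted p = 0.578, 0.944 and 0.611) and in limma.

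A20 of the related genes Gly-GCC-5-1, Gly-GCC-2-1 and Gly-CCC-1-1 went the same way without a call, with log2 odds ratios of 1.67, 1.28 and 1.12 (edgeR adjusted p = 0.144, 0.594 and 0.929). How reads of these genes and of Gly-GCC-3-1 were told apart is not given in the sources used here.

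Among the sites with at least 20 reads in all 6 libraries, the highest mean mismatch rates were at A21 of valine tRNAs, in both groups. Over 7 genes with enough reads, 30.3%, 22.9% and 24.6% of pooled reads had a mismatch in AlkB-treated libraries, against 23.5%, 22.1% and 18.4% in untreated libraries. The rate was higher with AlkB in 3 of 3 pairs, but the groups overlapped, at 25.9% ± 3.88 with AlkB and 21.4% ± 2.65 without it (SD, n = 3 each, exact permutation p = 0.2). Vector input was higher than both, at 39.2% ± 1.32 (SD, n = 3). Val-AAC-4-1 A21, for example, had 29.7%, 25% and 30.2% with AlkB and 24.7%, 21.9% and 21.7% without it (log2 odds ratio 0.43, edgeR adjusted p = 0.929).

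A34 of Arg-ACG tRNAs, the wobble base that a deaminase turns into inosine, was covered by few IP reads. In Arg-ACG-2-1, 3 of 3, 5 of 5 and 7 of 8 reads had a mismatch in AlkB-treated libraries, against 4 of 4 and 2 of 2 in untreated libraries 1 and 2 and no read in untreated library 3. The site was mismatched in nearly every read of both groups, at a depth too low for a test.

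At the 3′ end, reads pooled over 108 sites had a mismatch rate of 0.24%, 0.185% and 0.207% in AlkB-treated libraries, against 0.168%, 0.126% and 0.157% in untreated libraries. The groups did not overlap (exact permutation p = 0.1, the smallest possible), while the medians over these sites were 0.11% in both. Position 14 sites had pooled rates of 0.296% ± 0.0362 with AlkB and 0.275% ± 0.0135 without it (SD, n = 3 each, exact permutation p = 0.6).

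Coverage of the 5′ part of the tRNA was tested in 25 tRNAs and called by limma in none (0%; 7 with an unadjusted p under 0.05). The log2 change was above 0 in 20 of the 21 that are not tyrosine tRNAs, with a median of 2.26. By their last letters these 21 form 8 families, with Glu-TTC-4-1 and Glu-TTC-14-1 counted apart because their last letters were not compared. Of the 21, 6 are proline genes of 1 family and 6 serine genes of another. In these 6 serine genes the 5′ site was deeper than the 3′ end in every library of both groups. Glutamate, alanine and Val-CAC-2-1 genes had this in some libraries. There the ratio is not the share of reads that reached the 5′ part. Ser-AGA-1-1 had 111, 590 and 433 reads at the 5′ site with AlkB and 2270, 290 and 449 without it. Its 3′ end had 34, 28 and 26 reads with AlkB and 1129, 232 and 113 without it. The 6 proline genes had a shallower 5′ site in every IP library of both groups. In vector input their mean ratios ran from 43.5% in Pro-TGG-2-1 to 124% in Pro-TGG-3-2. For proline, too, the ratio need not be the share of reads that reached the 5′ part. The 4 tyrosine genes had no read at the 5′ site in any untreated library, so their fitted values rest on the added reads and are not counted here. The groups did not overlap in 36% of the 25. Pro-TGG-3-2 (chr14:20684016-20684087, plus strand) had reads at its 5′ site amounting to 10.8%, 30.6% and 36.8% of its 3′-end reads in AlkB-treated libraries, against 7.51%, 0.204% and 0.248% in untreated libraries (log2 change 4.72, SE 1.68, limma adjusted p = 0.101). Its untreated libraries 2 and 3 had 1 and 3 reads there. Ser-TGA-4-1 went the other way, at 18.3%, 57.7% and 42.1% in AlkB-treated libraries, against 1510%, 245% and 390% in untreated libraries, where the 5′ site was deeper than the 3′ end. The tyrosine tRNAs were not part of this, since Tyr-GTA-5-5 had 0%, 0.911% and 0% with AlkB and 0% in all untreated libraries. No read covered the 5′ site of that gene in 5 of the 6 libraries. Site counts do not show whether the reads there in AlkB-treated library 2 had passed position 58.

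Whether AlkB acted alike in vector and knockdown cells was tested as an interaction over 38 tRNAs with enough reads in all 12 IP libraries. It passed in 3 (limma adjusted p under 0.05, 7.89%), all tyrosine tRNAs. Tyr-GTA-2-1 read-through in knockdown cells was 58.7%, 71.2% and 75.7% with AlkB and 69.4%, 19.5% and 58.7% without it, so that the log2 change was 3.76 in vector and 0.66 in knockdown cells (difference 3.10, SE 0.66, limma adjusted p = 0.0466). The treated libraries of both lines lay in a similar range, and the untreated ones did not: they stood between 2.49% and 7.47% in vector cells and between 19.5% and 69.4% in knockdown cells. Tyr-GTA-5-4 had log2 changes of 3.71 in vector and 0.86 in knockdown cells (difference 2.85, SE 0.63, limma adjusted p = 0.0466).

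Tyr-GTA-8-1 turned round between the lines. In knockdown cells it had 37.8%, 78.4% and 69.9% with AlkB and 0.476%, 17.4% and 7.11% without it, a log2 change of 3.89 against -1.40 in vector cells (difference -5.29, SE 1.07, limma adjusted p = 0.0466). All 3 calls were lost with 5 reads added to each count in place of 0.5. The summed read-through differed by -7.58, -12.5 and -10 percentage points between AlkB-treated and untreated libraries of vector pairs 1 to 3, against 1.41, 9.39 and -22.9 in knockdown pairs (exact permutation p = 0.6).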

How the data were processed

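m1A-MAP-seq measured small RNA of WPMY-1 cells. The deposited table gives 2 raw counts per site and library, per the file headers: covering reads and mismatched reads. The authors' mismatch rate (a fraction of reads) and their fold column (a ratio of rates) were not used. Reads had been processed with Bowtie2 2.2.4, cutadapt 1.9.3 and SAMtools 1.3.1 for hg38, per the submitters' processing notes; how sites were chosen for listing is not given in the sources used here. Left out were 19 lines, not used here, and 6 lines that repeat another. RefSeq has a tRNA gene at the coordinates of 172 of the 180 genes.

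Read-through is reads at position 58 over the median of reads at sites 0 to 8 nucleotides from the 3′ end. It was tested with limma 3.58.1 in R 4.3.3 on log2 values with 0.5 reads added, which understates changes of low values and, where a site has no read in either group, sets the fitted value by itself. Mismatched and matched reads, and 3′-end reads per tRNA, were tested with the edgeR 4.0.16 quasi-likelihood test, and DESeq2 1.42.0 was an alternative. Every fit had the replicate number as a block, a minimum of 20 reads per library (filterByExpr for 3′-end reads) and Benjamini-Hochberg adjustment over all features tested, two-sided at 0.05. The code of the tests was run on simulated data. For 3′-end reads these were set to scatter less than the data do, so the run does not show how firm the calls are. Half-read counts come from a median of an even number of sites. 5′ coverage used the listed site nearest the 5′ end among numbers 1 to 26.

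The pairing was inferred from the protocol, which divides each pulldown, and from the shared replicate numbers. Deviations of same-numbered libraries from their group means correlated at -0.12, -0.62 and -0.57 for log2 read-through and at -0.06, -0.06 and -0.29 for log2 reads. Summed read-through, in contrast, was lowest in pair 1 in both groups. tRNAs named were those past a threshold, the best covered of each amino acid, those with the smallest p per direction, and iMet, A21 of valine and A34 of Arg-ACG. The comparison, its members and these lists were chosen with earlier results of these data known.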

Additional observations from a re-analysis of the deposited data

Results flagged for a closer look

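The response of read-through to AlkB differed between vector and knockdown cells, by the limma interaction test, in 3 tyrosine tRNAs. For Tyr-GTA-8-1 the vector minus knockdown difference of log2 changes was -5.29, with opposite directions in the 2 lines. For Tyr-GTA-2-1 it was 3.10, and for Tyr-GTA-5-4 it was 2.85. The limma adjusted p was 0.0466 for each, and Tyr-GTA-2-1 and Tyr-GTA-5-4 share their last 22 letters. Tyr-GTA-5-5 and Tyr-GTA-7-1 had differences of 2.89 and 3.19 with a limma adjusted p of 0.0772 each. The treated minus untreated contrast of each line uses its own libraries.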

How the results depend on the processing

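Read-through calls (4 tRNAs) came to 0 with reads summed by anticodon, 2 over families of identical last letters, 0 of 254 over adjacent sites, and 0 to 6 with a replicate pair or a library left out; without the replicate block they were 4, and the other settings gave 4 as well. Mismatch calls (1 site) were 2 without the replicate block, 36 in the quasi-binomial F-test and 36 in its Wald form, 0 with its dispersion held at 1 or more, 0 in either limma fit, 0 without sites at 7900 reads or more, and 0 with any replicate pair left out. Of the 36, 16 had 3 or fewer mismatched reads; with so few, a dispersion under 1 makes the p small. The median mismatch difference over all sites, -0.0361 percentage points, was 0.0812 as a mean over sites and -0.0702 to 0.0204 without a replicate pair, and that of position 58 was -0.205 to 0.0164. 5′ coverage calls (0) were 2 without the replicate block. tRNA read calls (0) were 2 without the replicate block, 26 in DESeq2, 11 with library totals in place of TMM, 1 by anticodon, 4 without tRNAs at 7900 reads or more, and 7 to 16 without a replicate pair. Interaction calls (3) were 2 without the replicate block and 0 with 5 reads added. The causes of these changes were not tested, apart from that of the quasi-binomial calls. Families, the deepest-site and adjacent-site measures, the Wald form, the fit and the 5′ counts without tyrosine, the sign-flip test and the single-library fits were chosen after seeing the data. Low 3′-end depth of untreated libraries limits Tyr-GTA-8-1, Gly-CCC-1-1 and Val-CAC-2-1, and the ceiling near 8000 reads limits Gln-CTG-1-4, Gln-CTG-5-1, Leu-CAG-1-1 and the Gly genes.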

Other observations

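Outside the comparisons above, A58 of Thr-CGT-4-1, which is position 59 of the tRNA, had a mismatch in 0 of 120, 2 of 343 and 0 of 270 reads in AlkB-treated libraries, against 31 of 2909, 37 of 2651 and 73 of 4881 reads in untreated libraries, that is 0.194% ± 0.337 and 1.32% ± 0.225 (SD, n = 3 each; edgeR adjusted p = 0.929 over 285 sites). The same site of Thr-CGT-2-1 had 0.718% ± 0.628 with AlkB and 1.16% ± 0.115 without it (SD, n = 3 each; edgeR adjusted p = 0.929). A21 of Val-CAC-2-1 had 90 mismatched of 287 reads with AlkB and 414 of 996 without it.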
